A study of Mus musculus with 19 samples.

Results

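Interferon-stimulated genes (ISGs) are the genes that cells switch on when interferon binds its receptor. The set described here holds 39 mouse genes, chosen by name as targets of type I and type II interferon together with the transcription factors that drive them. The choice was made with earlier results of these data known. All 39 were found by symbol among the 33919 gene identifiers of the deposited table, and all 39 were among the 14875 genes with enough signal to test. Their RNA was measured in 19 bulk libraries of Kupffer cells, macrophages that line the sinusoids of the liver, obtained by flow sorting from female C57BL/6 mice, of which those on the test diet are described as wild type. The 6 libraries called Chow_EmKCs came from chow-fed animals and hold embryo-derived cells. Animals on the MCD diet (methionine- and choline-deficient) for 4 weeks, a model of fatty liver inflammation, gave 6 libraries of embryo-derived cells, called MCD_EmKCs, and 7 of monocyte-derived cells, called MCD_MoKCs. The gate for EmKCs was CLEC2+ TIMD4+ and that for MoKCs was CLEC2+ TIMD4-, so a monocyte origin was read from the lack of TIMD4 and not from a lineage label. The age of the mice and which libraries came from separate animals are not stated, and p-values therefore measure only the spread between these samples, which may be technical.

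Type I interferons (interferon-alpha and -beta) signal through the receptor Ifnar1/Ifnar2 and a complex that holds Stat2 and Irf9, which binds the interferon-stimulated response element (ISRE). Type II interferon (interferon-gamma), made mainly by T and NK cells, signals through Ifngr1/Ifngr2 to the gamma-activated site (GAS) in DNA. Macrophages keep a basal level of many ISGs, and in Kupffer cells, which filter portal blood, these genes encode sensors of foreign nucleic acid, antiviral proteins and GTPases that attack intracellular microbes.

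Promoters were examined for both elements, as a description without a test. The members were chosen as interferon targets, so their share of motifs describes the list and not the differences between groups. In the promoter sequences of RefSeq (GRCm38.p6, the assembly known as mm10), 30 members were matched, with 37 start sites. Each window held 300 bases, 250 before and 50 after the start. The ISRE core was searched as GAAANNGAAA on both strands, and the GAS as TTCNNNGAA, which reads the same on both strands. The core was found for 17 of 30 members (56.7%), against 3.99% of the 27025 genes in the promoter table. The GAS was found for 9 of 30 members, against 9.55% of all genes. In MCD_EmKCs against Chow_EmKCs, the ISRE core was found for 3 of 8 members called lower and 14 of 21 not called. Calls are defined below. In MCD_MoKCs against MCD_EmKCs it was found for 1 of 4 and 16 of 26. In MCD_MoKCs against Chow_EmKCs it was found for 8 of 11 and 9 of 18. A link between the core and these differences was not tested. Of the 16 members described in full below, Zbp1, Rtp4 and Usp18 had no promoter sequence. Another 5 had an ISRE core, and their sequences are shown. Each is written 5′ to 3′ on the strand of the gene, with the core or its overlapping copies in capitals.
Oas1a: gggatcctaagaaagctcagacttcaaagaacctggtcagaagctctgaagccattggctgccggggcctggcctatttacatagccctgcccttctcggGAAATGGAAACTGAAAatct
Irgm1: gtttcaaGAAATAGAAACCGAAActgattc
Gbp3: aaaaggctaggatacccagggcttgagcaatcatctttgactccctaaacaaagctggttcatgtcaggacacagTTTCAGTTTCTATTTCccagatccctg
Gbp2: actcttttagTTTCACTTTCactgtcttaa
Stat2: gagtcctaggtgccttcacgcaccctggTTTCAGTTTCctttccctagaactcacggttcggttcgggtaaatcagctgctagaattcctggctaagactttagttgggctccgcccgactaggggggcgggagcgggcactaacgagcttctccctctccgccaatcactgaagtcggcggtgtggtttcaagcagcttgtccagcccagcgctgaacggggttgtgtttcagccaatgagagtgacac

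The Oas1a stretch lies at chr5:120907526-120907645 on the minus strand and ends 1 base before the start site, with its core at positions -20 to -5. That of Irgm1 is chr11:48871428-48871457 on the minus strand, with the core at -30 to -15. That of Gbp3 is chr3:142559924-142560025 on the plus strand, with the core at -45 to -30. In Oas1a, Irgm1 and Gbp3, copies of the core overlap to form a run of 16 bases. Gbp2 has a single copy at -59 to -50 of chr3:142620594-142620623 (plus strand), and Stat2 a single copy at -222 to -213 of chr10:128270248-128270497 (plus strand). Positions count from the RefSeq start. The GENCODE starts of Gbp2 and Irgm1 lie further upstream, so the cores of both fall within the GENCODE bounds of these genes. In Gbp3, Gbp2 and Stat2 the core reads on the strand opposite to the gene. Oasl1, the only member that was higher after the diet in embryo-derived cells, had neither motif in its window, and neither had Irf7, Irf9, Ifi44 or Xaf1. A match is a run of letters and not a site shown to be bound, and its absence concerns this window alone. Dhx58, Zbp1, Ifi204, Mx1, Mx2, Oas2, Rtp4, Usp18 and Parp14 were not matched.

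**Figure D1:**
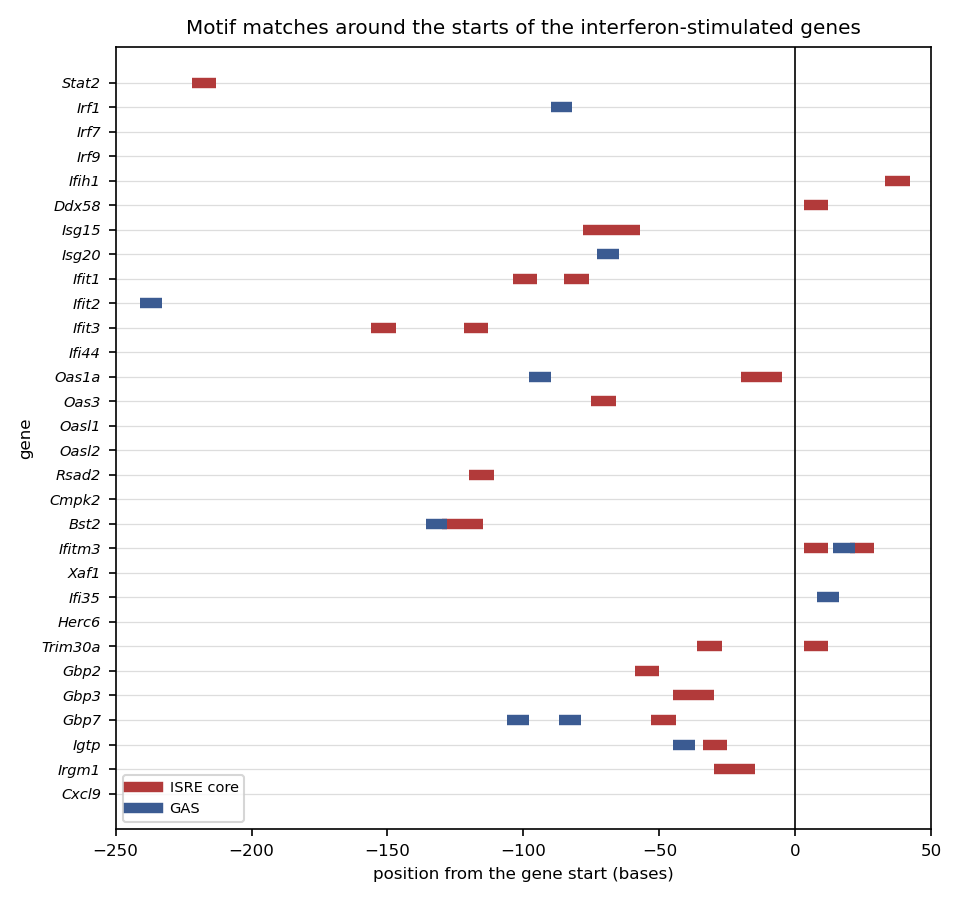
Matches of the ISRE core (red) and the GAS (blue) for the 30 members with a RefSeq promoter, 1 row per gene with all its start sites overlaid, by position in bases from the start (0 on the axis, vertical line). Of the 30 members, 17 have an ISRE core and 9 a GAS. The ISRE cores of Ifih1, Ddx58 and Ifitm3 and 1 of the 2 of Trim30a, at another start, lie after the start, and in Bst2 and Ifitm3 the motifs overlap.

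Values are the deposited normalised reads, that is, reads per gene divided by a size factor for each library. Total reads ran from 11642240 to 30983487 per library. Tests used limma on log2(value + 1), so fold changes are on that scale. A gene is called higher or lower where its Benjamini-Hochberg adjusted p over all 14875 genes was at most 0.05. MCD_EmKCs libraries 1 and 2 stood apart on the second principal component, at -142.3 and -70.64 against -30.52 to 53.09 in the other libraries, and calls that were lost without them are given as such. On the third component MCD_MoKCs 1 to 3 stood apart from the rest of their group, at 38.37 to 86.94 against -75.52 to -25.76 in MCD_MoKCs 4 to 7, and their mitochondrial share was 0.534 to 0.729% against 0.244 to 0.359%. Calls lost without these 3 libraries are given beside the gene. The labels also number the libraries, and the numbers form a set up to 33, with 3, 3 and 5 libraries of Chow_EmKCs, MCD_EmKCs and MCD_MoKCs, and a set from 37, with 3, 3 and 2. Mitochondrial genes took 0.511 to 1.05% of reads in Chow_EmKCs, 0.155 to 0.317% in MCD_EmKCs and 0.244 to 0.729% in MCD_MoKCs, and the part of this difference in the results was not tested. The 12 Kupffer cell markers were present in every group, none at 0 throughout, with sums of 501414 to 605156 normalised reads in Chow_EmKCs, 447624 to 497662 in MCD_EmKCs and 157045 to 209378 in MCD_MoKCs. In MCD_MoKCs, limma called 10 of the 12 lower than in MCD_EmKCs and 10 lower than in Chow_EmKCs (4.9% and 8.08% of all genes). Timd4, used in the gate, was among both. In MCD_EmKCs against Chow_EmKCs, Folr2, Nr1h3, Clec4f and Csf1r were lower and Marco higher (1.58% and 2.5% of all genes).

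The diet comparison in embryo-derived cells asks how 4 weeks of MCD feeding left the interferon programme of resident macrophages. MCD_EmKCs had lower RNA of the DNA and Z-RNA sensor Zbp1, of the transcription factors Irf9 and Irf7, of the 2′-5′ oligoadenylate synthetase Oas1a, and of Ifi44, Xaf1, Ifi35, Rtp4, Gbp3 and Irgm1. A single member, the Oas-like gene Oasl1, was higher. Thus 10 of 39 members (25.6%) were lower, against 1.58% of all genes tested, and 1 of 39 (2.56%) was higher, against 2.5% of all genes, a share at the background. Because the members were chosen with earlier results of these data known, such shares, here and below, describe the list and are not independent support. In either direction 11 of 39 members were called, against 4.08% of all genes. The median log2 fold change of the members was -0.451, against -0.0388 over all genes, and 27 members had a negative and 12 a positive value. In bulk RNA, fewer cells expressing a gene and less RNA per cell cannot be told apart. The number of lower members depended on single libraries. It was 4 without Chow_EmKCs 1, 3 without Chow_EmKCs 2, 6 without Chow_EmKCs 3, 3 without Chow_EmKCs 5 and 6 without Chow_EmKCs 6. It was 4 without MCD_EmKCs 2, 5 without MCD_EmKCs 5, 4 without MCD_EmKCs 6 and 2 without MCD_EmKCs 1 and 2 together. Zbp1, Oas1a and Oasl1 passed in each of the 19 models that left out 1 library, and also without MCD_EmKCs 1 and 2. The median log2 fold change stayed between -0.513 and -0.381 in those 19 models. Within the library numbers up to 33, limma called 0 members lower and Oasl1 higher, with 13 lower and 3 higher at an unadjusted p under 0.05 and a median of -0.486. Within the numbers from 37, Oas2 and Stat2 were called lower and Oasl1 higher, with 16 lower and 1 higher at an unadjusted p under 0.05 and a median of -0.391.

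The comparison of the 2 macrophage origins on the same diet found 5 of 39 members (12.8%) lower in MCD_MoKCs than in MCD_EmKCs, against 4.9% of all genes tested. These were the interferon brake Usp18, the guanylate-binding protein Gbp2, Oasl1, Ifit2 and Irf7. No member was called higher by limma, edgeR or DESeq2, where limma called 5.64% of all genes higher, and at an unadjusted p under 0.05 limma gave 1 member higher and 9 lower. In either direction the background was 10.5%. The median log2 fold change was -0.206, against 0.0207 over all genes, with 23 members negative and 16 positive. The count of lower members was 2 without MCD_EmKCs 1, and 3 without any of MCD_EmKCs 3, MCD_EmKCs 4, MCD_MoKCs 2, MCD_MoKCs 4, or MCD_EmKCs 1 and 2 together. Irf7 and Oasl1 passed in each of the 19 models that left out 1 library. Within the library numbers up to 33, Usp18, Oasl1 and Ifit2 were called lower (median of all members -0.15). Within those from 37, limma called 0 members, with 5 lower and 0 higher at an unadjusted p under 0.05 (median -0.184).

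Monocyte-derived cells after the diet against embryo-derived cells on chow differ in both origin and diet, which cannot be told apart here. In this comparison 16 of 39 members (41.0%) were lower in MCD_MoKCs, against 8.08% of all genes tested, and Oasl1 was higher (2.56%, against 8.68% of all genes), where 16.8% of all genes were called in either direction. The median log2 fold change was -0.542, against -0.0116 over all genes, and 33 members were negative and 6 positive. The lower count ran from 12 to 19 over the 19 models that left out 1 library, and the higher count was 0 without Chow_EmKCs 3 and 2 without Chow_EmKCs 1 or Chow_EmKCs 6. Within the library numbers up to 33, 5 members were lower, and within those from 37, 7 were, with medians of -0.621 and -0.508 and no member higher by limma (2 at an unadjusted p under 0.05 in each set). Irf7, Gbp3 and Ifitm3 kept their call in all 32 alternative settings. The 3 comparisons share groups of libraries, so their values are set side by side and are not independent of each other.

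**Figure D2:**
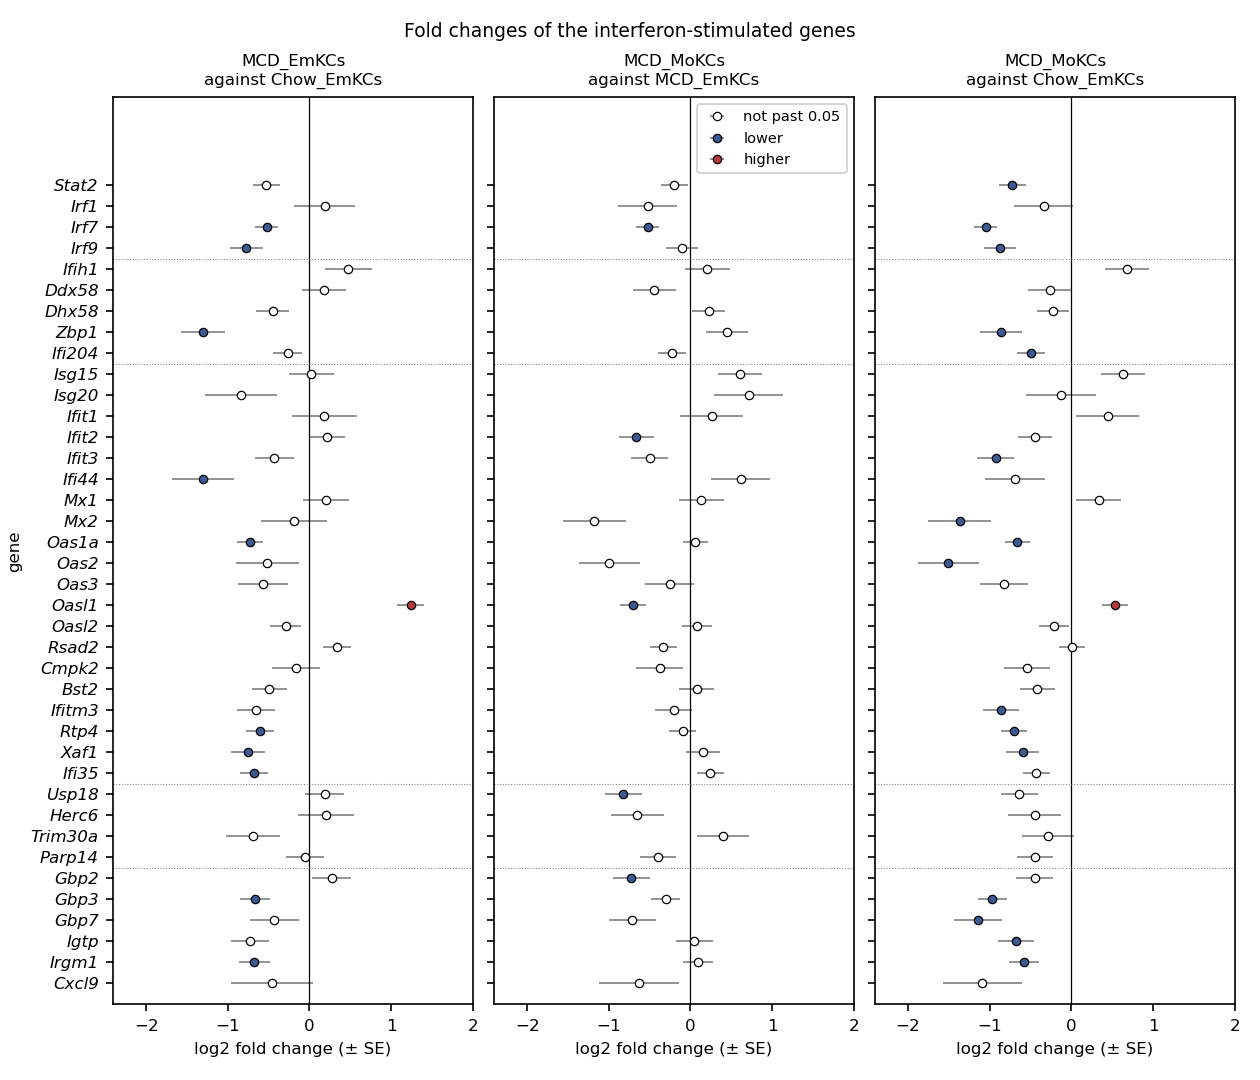
Log2 fold change (points) and its standard error (bars) of the 39 members in the 3 comparisons, with filled points for those past an adjusted p of 0.05 and dotted lines between roles. In the left panel 10 members are lower and Oasl1 is higher, in the middle panel 5 are lower, and in the right panel 16 are lower and Oasl1 is higher.

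Among the 4 transcription factors, Irf7, Irf9 and Stat2 had their highest mean in Chow_EmKCs. Irf7, the factor that amplifies type I interferon production (ENSMUSG00000025498, chromosome 7, 141262706 to 141266481), ran from 16256 through a median of 20355 to 26814 normalised reads in Chow_EmKCs. Its values were 13051, 14308 and 16068 (lowest, median, highest) in MCD_EmKCs and 6856, 10367 and 13644 in MCD_MoKCs. Every MCD_EmKCs library lay below every Chow_EmKCs library, if by a narrow margin, and the MCD_MoKCs libraries lay lower again, overlapping MCD_EmKCs at their upper end. Irf7 fell by 0.53 on the log2 scale in MCD_EmKCs (SE 0.15, limma adjusted p = 0.0381), by a further 0.52 in MCD_MoKCs against MCD_EmKCs (SE 0.14, adjusted p = 0.0159) and by 1.05 in MCD_MoKCs against Chow_EmKCs (SE 0.14, adjusted p = 3.7e-06). The first of these was lost in 9 of the 19 models that left out 1 library (log2 fold change -0.60 to -0.45, adjusted p up to 0.102), with edgeR, and without MCD_EmKCs 1 and 2 (-0.52, adjusted p = 0.113). Per kilobase of exon, Irf7 was the second most abundant member in Chow_EmKCs, at 5555 normalised reads. Exons of Phrf1 on the opposite strand overlap those of Irf7, and the strand setting of the counting is not given, so the reads of these genes cannot be separated here.

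Irf9, the DNA-binding part of the complex that recognises the ISRE (ENSMUSG00000002325, chromosome 14, 55603571 to 55610030), had 1555, 2086 and 2575 normalised reads (lowest, median, highest) in Chow_EmKCs. It had 677, 1343 and 1565 in MCD_EmKCs and 835, 1109 and 1549 in MCD_MoKCs. Only the highest MCD_EmKCs library reached the lowest Chow_EmKCs library, and all 7 MCD_MoKCs libraries lay below the chow range. The log2 fold change was -0.77 in MCD_EmKCs (SE 0.20, adjusted p = 0.0264), -0.10 in MCD_MoKCs against MCD_EmKCs (SE 0.20, adjusted p = 0.82) and -0.87 in MCD_MoKCs against Chow_EmKCs (SE 0.20, adjusted p = 0.00199). The lowest value, 677, came from MCD_EmKCs 1, and without that library the diet difference was -0.60 and no longer passed, as was the case without Chow_EmKCs 1, 2 or 5 or MCD_EmKCs 6 (adjusted p up to 0.0728) and without MCD_EmKCs 1 and 2 together (-0.65, adjusted p = 0.0802). Exons of Rnf31 on the same strand overlap those of Irf9, which leaves its count uncertain.

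Stat2, its partner in that complex (ENSMUSG00000040033, chromosome 10, 128270559 to 128292849), had 3366, 5341 and 6055 normalised reads in Chow_EmKCs. It had 3035, 3218.5 and 4133 in MCD_EmKCs and 2269, 2895 and 4415 in MCD_MoKCs. Chow_EmKCs 2 and 3 fell within the range of the MCD_EmKCs libraries, and the other 4 chow libraries, at 5246 to 6055, lay above every diet library. Stat2 was lower in MCD_MoKCs than in Chow_EmKCs (log2 fold change -0.73, SE 0.16, adjusted p = 0.00223), a call lost without MCD_MoKCs 1 to 3 (-0.51, adjusted p = 0.0599). Its difference in MCD_EmKCs against Chow_EmKCs was -0.53 (SE 0.17) and did not pass (adjusted p = 0.0864).

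Irf1, a factor induced by interferon-gamma and by NF-kB (ENSMUSG00000018899, chromosome 11, 53770014 to 53778374), behaved unlike the other 3. It had 14722, 16620 and 36825 normalised reads in Chow_EmKCs, 11733, 19631 and 52556 in MCD_EmKCs, and 8489, 19439 and 26001 in MCD_MoKCs. A few libraries held the high values: Chow_EmKCs 5 among the chow libraries, and MCD_EmKCs 1 to 3, at 52556, 25117 and 29489, against 11733 to 14146 in MCD_EmKCs 4 to 6. Within MCD_MoKCs, libraries 1 to 3 had 8489 to 10223 and libraries 4 to 7 had 19439 to 26001. No comparison of Irf1 passed, and its log2 fold change in MCD_EmKCs turned from 0.19 (SE 0.38) to -0.20 without MCD_EmKCs 1 and 2. Its exons overlap those of Gm17334 on the opposite strand.

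**Figure D3:**
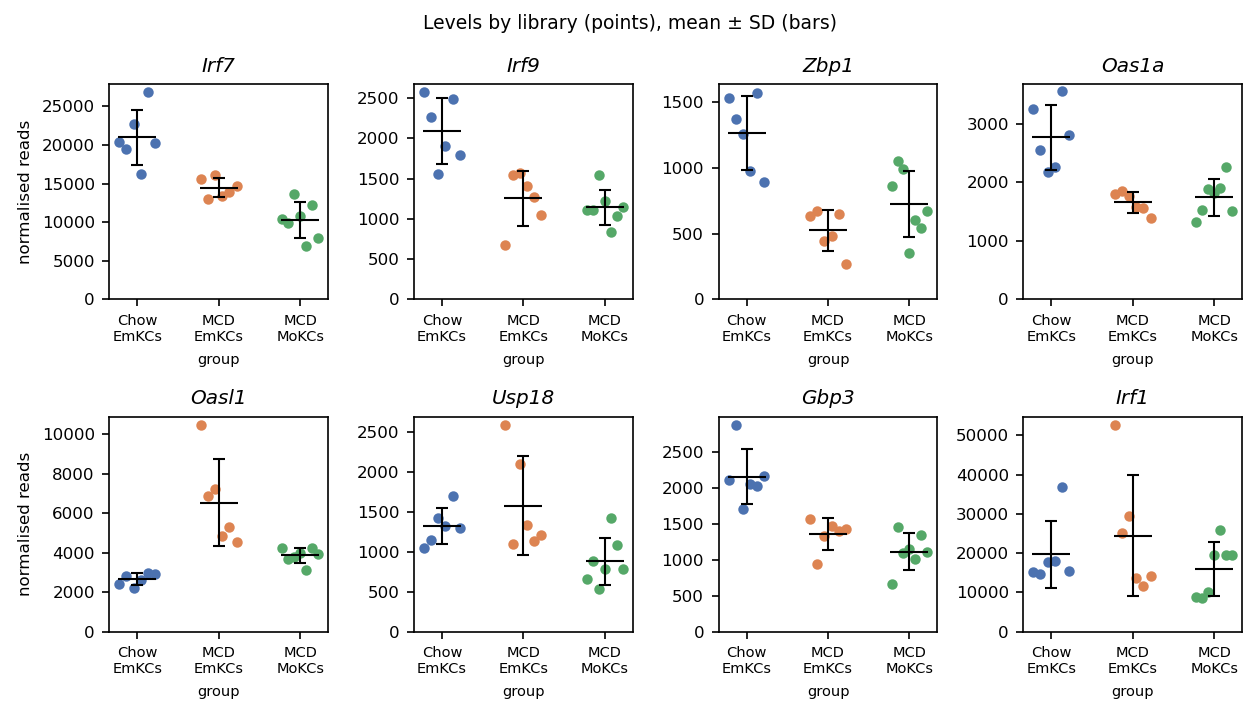
Normalised reads of 8 members in each library (points) with the group mean and SD (bars), by group. Irf7, Zbp1, Oas1a and Gbp3 have all 6 MCD_EmKCs libraries below all 6 Chow_EmKCs libraries, Oasl1 has them all above, and in Usp18 (libraries 1 and 3) and Irf1 (libraries 1 to 3) some MCD_EmKCs libraries lie above the others of their group.

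Of the 5 nucleic acid sensors, Zbp1 was lower in MCD_EmKCs, and Zbp1 and Ifi204 were lower in MCD_MoKCs than in Chow_EmKCs. Zbp1, which senses Z-form nucleic acid and can trigger necroptosis (ENSMUSG00000027514, chromosome 2, 173206612 to 173218923), had 892, 1318 and 1571 normalised reads in Chow_EmKCs. It had 268, 559 and 677 in MCD_EmKCs and 350, 673 and 1052 in MCD_MoKCs. The MCD_EmKCs and Chow_EmKCs libraries did not overlap, while MCD_MoKCs libraries 2 and 3, at 1052 and 993, reached into the chow range. Zbp1 fell by 1.30 on the log2 scale in MCD_EmKCs (SE 0.27, adjusted p = 0.00357), equal to a drop by 59.5%, the second lowest fold change among the members called. In MCD_MoKCs it fell by 0.86 against Chow_EmKCs (SE 0.26, adjusted p = 0.0201), a call lost without Chow_EmKCs 1, Chow_EmKCs 5 or MCD_MoKCs 4 (adjusted p up to 0.0539). The difference of 0.45 between MCD_MoKCs and MCD_EmKCs (SE 0.26, adjusted p = 0.318) did not pass.

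Ifi204, a DNA sensor of the Ifi200 family, whose members share sequence, was lower in MCD_MoKCs than in Chow_EmKCs, with a log2 fold change of -0.49 (SE 0.17, adjusted p = 0.0475). That call was lost in 13 of the 19 models that left out 1 library (log2 fold change -0.58 to -0.40) and with edgeR and DESeq2. The RNA sensors Ifih1 (MDA5), Ddx58 (RIG-I) and their regulator Dhx58 (LGP2) passed in no comparison. Ifih1 had the highest values of the 3, at 0.48 (SE 0.28) in MCD_EmKCs and 0.68 (SE 0.27, adjusted p = 0.0939) in MCD_MoKCs against Chow_EmKCs, and the group means were 756, 995 and 1122 normalised reads in Chow_EmKCs, MCD_EmKCs and MCD_MoKCs.

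The 20 antiviral effectors included the only riser. Oasl1 (ENSMUSG00000041827, chromosome 5, 114923240 to 114937915) encodes an Oas-like protein without synthetase activity that, in mice, holds back translation of Irf7 mRNA. It had 2215, 2737 and 2982 normalised reads in Chow_EmKCs, 4531, 6075 and 10485 in MCD_EmKCs, and 3128, 3960 and 4246 in MCD_MoKCs. The 3 groups did not overlap: every MCD_MoKCs library lay above every Chow_EmKCs library and below every MCD_EmKCs library. Oasl1 rose by 1.24 on the log2 scale in MCD_EmKCs (SE 0.17, adjusted p = 2.3e-05), and by 1.09 without the highest library, MCD_EmKCs 1. In MCD_MoKCs it was lower than in MCD_EmKCs (log2 fold change -0.70, SE 0.16, adjusted p = 0.00376) and 0.53 higher than in Chow_EmKCs (SE 0.16, adjusted p = 0.0198), and the last call was lost without Chow_EmKCs 3 (0.48, adjusted p = 0.0512) and without MCD_MoKCs 1 to 3 (0.52, adjusted p = 0.0842). Within the library numbers from 37, which hold MCD_EmKCs 4 to 6, the rise over chow was 0.778 and passed, while the difference between the 2 diet groups was -0.25 and did not. An antisense gene, Gm13822, overlaps its exons.

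Oas1a, which makes the 2′-5′ oligoadenylates that activate RNase L (ENSMUSG00000052776, chromosome 5, 120896256 to 120907521), had 2179, 2671 and 3556 normalised reads in Chow_EmKCs. It had 1386, 1669 and 1852 in MCD_EmKCs and 1323, 1812 and 2255 in MCD_MoKCs. The MCD_EmKCs libraries all lay below the chow libraries, and MCD_MoKCs 6 alone reached above the lowest chow library. Oas1a fell by 0.73 in MCD_EmKCs (SE 0.16, adjusted p = 0.00779) and by 0.66 in MCD_MoKCs against Chow_EmKCs (SE 0.16, adjusted p = 0.00303), while MCD_MoKCs and MCD_EmKCs were 0.06 apart (SE 0.16). Its near-identical neighbour Oas1g can share reads with it, and had a log2 fold change of -0.87 in MCD_EmKCs (SE 0.23, adjusted p = 0.0297). Oas2 passed in MCD_MoKCs against Chow_EmKCs alone (-1.51, SE 0.37, adjusted p = 0.00721), a call lost without MCD_MoKCs 1 to 3 (-1.13, adjusted p = 0.0752). Its MCD_EmKCs libraries held the highest value of all 19, 14119 in library 1, beside 3270 to 5446 in the other 5. Oas3 and Oasl2 passed in no comparison.

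Ifi44, an effector whose biochemical role is less settled (ENSMUSG00000028037, chromosome 3, 151730922 to 151749960), had the lowest fold change in MCD_EmKCs but low and scattered values. It had 143, 379 and 609 normalised reads in Chow_EmKCs, 57.2, 145 and 245 in MCD_EmKCs, and 161, 214 and 244 in MCD_MoKCs. The lowest 3 of its 19 values were those of MCD_EmKCs 1 to 3, and the groups overlapped. Its log2 fold change of -1.31 (SE 0.38, adjusted p = 0.0483) lost its call in 14 of the 19 models that left out 1 library (-1.54 to -1.07, adjusted p up to 0.134). It was -1.12 without MCD_EmKCs 1 and 2 (adjusted p = 0.188), -1.31 without MCD_MoKCs 1 to 3 (adjusted p = 0.0621) and -0.425 within the library numbers from 37.

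Xaf1, a pro-apoptotic partner of XIAP (ENSMUSG00000040483, chromosome 11, 72301629 to 72313733), had 685, 898 and 1037 normalised reads in Chow_EmKCs, 378, 504 and 677 in MCD_EmKCs, and 399, 624.6 and 722 in MCD_MoKCs. The MCD_EmKCs libraries lay just below the chow range, and MCD_MoKCs 1 to 3, at 696 to 722, reached its lower end. Xaf1 fell by 0.75 in MCD_EmKCs (SE 0.21, adjusted p = 0.0416) and by 0.60 in MCD_MoKCs against Chow_EmKCs (SE 0.21, adjusted p = 0.0448). Each of these calls was lost in 10 of the 19 models that left out 1 library (log2 fold changes -0.83 to -0.66 and -0.67 to -0.51, adjusted p up to 0.101), and the former also without MCD_EmKCs 1 and 2 (-0.64, adjusted p = 0.174).

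Ifi35, an Ifi35/Nmi family protein (ENSMUSG00000010358, chromosome 11, 101448407 to 101458698), had 1268, 1800.3 and 2375 normalised reads in Chow_EmKCs, 1030.2, 1080.1 and 1367 in MCD_EmKCs, and 1038, 1257 and 1735 in MCD_MoKCs. Chow_EmKCs 6 alone lay within the range of the MCD_EmKCs libraries. Ifi35 fell by 0.68 in MCD_EmKCs (SE 0.17, adjusted p = 0.0206), a call lost without Chow_EmKCs 3 or Chow_EmKCs 5 (adjusted p up to 0.0611) and without MCD_EmKCs 1 and 2 (-0.69, adjusted p = 0.0598). An antisense gene, Gm11626, overlaps its exons.

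Rtp4, an interferon-induced receptor transporter with antiviral activity (ENSMUSG00000033355, chromosome 16, 23520291 to 23614222), had 2565, 3291 and 3971 normalised reads in Chow_EmKCs. It had 1722, 1964 and 2783 in MCD_EmKCs and 1277, 2035 and 2380 in MCD_MoKCs. MCD_EmKCs 1, at 2783, was the only library of either diet group to reach the chow range. The log2 fold change was -0.60 in MCD_EmKCs (SE 0.17, adjusted p = 0.035) and -0.70 in MCD_MoKCs against Chow_EmKCs (SE 0.16, adjusted p = 0.00238). The former call was lost in 8 of the 19 models that left out 1 library (-0.69 to -0.54, adjusted p up to 0.0926) and without MCD_EmKCs 1 and 2 (-0.64, adjusted p = 0.0541). A processed transcript, Gm45338, overlaps its exons.

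Ifit2, which binds RNA and restrains its translation (ENSMUSG00000045932, chromosome 19, 34550694 to 34576419), was lower in monocyte-derived cells on the diet. It had 2932, 3448 and 5751 normalised reads in Chow_EmKCs, 3318, 4020.0 and 8336 in MCD_EmKCs, and 1501, 2920 and 3560 in MCD_MoKCs. MCD_EmKCs 1 held the highest value of all 19 libraries and MCD_MoKCs 3 the lowest. Ifit2 fell by 0.67 in MCD_MoKCs against MCD_EmKCs (SE 0.21, adjusted p = 0.0442), a call lost in 10 of the 19 models that left out 1 library (-0.75 to -0.48, adjusted p up to 0.136), with the smallest difference without MCD_EmKCs 1. It was also lost without MCD_EmKCs 1 and 2 (-0.43, adjusted p = 0.246) and without MCD_MoKCs 1 to 3 (-0.435, adjusted p = 0.321). Its relative Ifit3, with near-identical Ifit3b, was lower in MCD_MoKCs than in Chow_EmKCs (-0.93, SE 0.23, adjusted p = 0.0044), while Ifit1 passed in no comparison.

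Of the remaining effectors, Ifitm3 and Mx2 passed, each in MCD_MoKCs against Chow_EmKCs alone. Ifitm3, which blocks viral entry at endosomes, had the highest level per kilobase of exon of all members in each group, at 21434, 13226 and 11923 normalised reads in Chow_EmKCs, MCD_EmKCs and MCD_MoKCs. Its log2 fold change was -0.86 in MCD_MoKCs against Chow_EmKCs (SE 0.22, adjusted p = 0.00771) and -0.66 in MCD_EmKCs (SE 0.23), which did not pass. Mx2, of the Mx family of GTPases, was lower in MCD_MoKCs than in Chow_EmKCs (-1.37, SE 0.39, adjusted p = 0.0138), and against MCD_EmKCs its value was -1.18 (SE 0.39, adjusted p = 0.052). Mx1 carries a defective allele in C57BL/6 mice, so its RNA does not stand for a working protein. Whether Mx2 RNA stands for a working protein in these mice was not examined. Isg15, Isg20, Mx1, Rsad2, Cmpk2 and Bst2 passed in no comparison. Isg15, the ubiquitin-like protein that is the standard marker of the type I response, had a mean of 531 ± 257 normalised reads in Chow_EmKCs, of 498 ± 65.3 in MCD_EmKCs and of 796 ± 269.8 in MCD_MoKCs (SD over libraries). Chow_EmKCs 1 and 2 were at 968 and 721, and Chow_EmKCs 3 to 6 at 347 to 444. MCD_MoKCs 1 to 3 were at 930 to 1135, and MCD_MoKCs 4 to 7 at 480 to 814.

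Of the 4 regulators of the response, Usp18 passed in a single comparison and Herc6, Trim30a and Parp14 in none. Usp18, which strips Isg15 from proteins and blocks signalling at Ifnar2 (ENSMUSG00000030107, chromosome 6, 121245906 to 121270917), had 1049, 1316 and 1699 normalised reads in Chow_EmKCs. It had 1093, 1274 and 2589 in MCD_EmKCs and 535, 789 and 1421 in MCD_MoKCs. MCD_EmKCs 1 and 3, at 2589 and 2098, stood above every other library, and 5 of 7 MCD_MoKCs libraries lay below every other library. Usp18 fell by 0.82 in MCD_MoKCs against MCD_EmKCs (SE 0.23, adjusted p = 0.0187). The call was lost without MCD_EmKCs 1 (-0.663) or MCD_EmKCs 3 (adjusted p up to 0.0616). It was also lost without MCD_EmKCs 1 and 2 (-0.735, adjusted p = 0.06), without MCD_MoKCs 1 to 3 (-0.59, adjusted p = 0.198) and within the library numbers from 37 (-0.4, adjusted p = 0.521). A lincRNA, Gm44148, overlaps its exons on the opposite strand. Trim30a, a negative regulator of Toll-like receptor signalling from a family of close copies, was split within MCD_MoKCs, with 16820 to 23848 in libraries 1 to 3 and 4928 to 8866 in libraries 4 to 7.

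The last 6 members are the GTPases and the chemokine that answer mainly to interferon-gamma. Gbp3, a guanylate-binding protein (ENSMUSG00000028268, chromosome 3, 142560026 to 142573209), had 1715, 2085 and 2883 normalised reads in Chow_EmKCs, 946, 1423 and 1568 in MCD_EmKCs, and 658, 1105 and 1453 in MCD_MoKCs. Neither diet group overlapped the chow libraries. Gbp3 fell by 0.67 in MCD_EmKCs (SE 0.19, adjusted p = 0.0391), a call lost in 10 of the 19 models that left out 1 library (-0.73 to -0.57, adjusted p up to 0.105) and without MCD_EmKCs 1 and 2 (-0.60, adjusted p = 0.13). It fell by 0.97 in MCD_MoKCs against Chow_EmKCs (SE 0.18, adjusted p = 0.000269), which held in all of these settings.

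Irgm1, an immunity-related GTPase of autophagy and vacuole defence (ENSMUSG00000046879, chromosome 11, 48861968 to 48871683), had 1264, 1440 and 1971 normalised reads in Chow_EmKCs. It had 727, 884 and 1414 in MCD_EmKCs and 788, 1038.5 and 1291 in MCD_MoKCs. MCD_EmKCs 4 alone, at 1414, and MCD_MoKCs 7 alone, at 1291, reached the chow range. Irgm1 fell by 0.68 in MCD_EmKCs (SE 0.19, adjusted p = 0.0366), a call lost in 8 of the 19 models that left out 1 library (-0.80 to -0.59, adjusted p up to 0.0987) and without MCD_EmKCs 1 and 2 (-0.68, adjusted p = 0.095). It fell by 0.58 in MCD_MoKCs against Chow_EmKCs (SE 0.18, adjusted p = 0.0253), a call lost without Chow_EmKCs 2, MCD_MoKCs 2 or MCD_MoKCs 4 (adjusted p up to 0.0754) and without MCD_MoKCs 1 to 3 (-0.60, adjusted p = 0.0641).

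Gbp2 (ENSMUSG00000028270, chromosome 3, 142620602 to 142638008), another guanylate-binding protein, differed in a different comparison. It had 711, 966 and 1421 normalised reads in Chow_EmKCs, 928, 1194 and 1397 in MCD_EmKCs, and 333, 741 and 992 in MCD_MoKCs. MCD_MoKCs 1 and 3, at 992 and 986, overlapped the lowest MCD_EmKCs libraries, and MCD_MoKCs 2 held the lowest value. Gbp2 fell by 0.72 in MCD_MoKCs against MCD_EmKCs (SE 0.23, adjusted p = 0.0396), a call lost in 8 of the 19 models that left out 1 library (-0.81 to -0.54, adjusted p up to 0.0914), with edgeR, and without MCD_EmKCs 1 and 2 (-0.67, adjusted p = 0.127). Reads of Gbp2, Gbp3 and Gbp7 can be confused with those of other family members.

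Gbp7 and Igtp were lower in MCD_MoKCs than in Chow_EmKCs, with log2 fold changes of -1.14 (SE 0.29, adjusted p = 0.00595) and -0.68 (SE 0.22, adjusted p = 0.0366), and in both the groups did not overlap. The Igtp call was lost in 7 of the 19 models that left out 1 library (-0.76 to -0.58, adjusted p up to 0.0842). In MCD_EmKCs, Igtp, whose exons overlap those of Irgm2, also lay wholly below chow (747 to 1024 normalised reads in Chow_EmKCs, 392 to 740 in MCD_EmKCs) but did not pass (-0.73, SE 0.23, adjusted p = 0.083). Cxcl9, the T cell chemokine induced almost solely by interferon-gamma, passed in no comparison. Its range was 151 to 363 normalised reads in Chow_EmKCs, 95.4 to 480 in MCD_EmKCs and 29.4 to 385 in MCD_MoKCs, the widest spread of any member within MCD_MoKCs (13.1 times between lowest and highest).

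**Figure D4:**
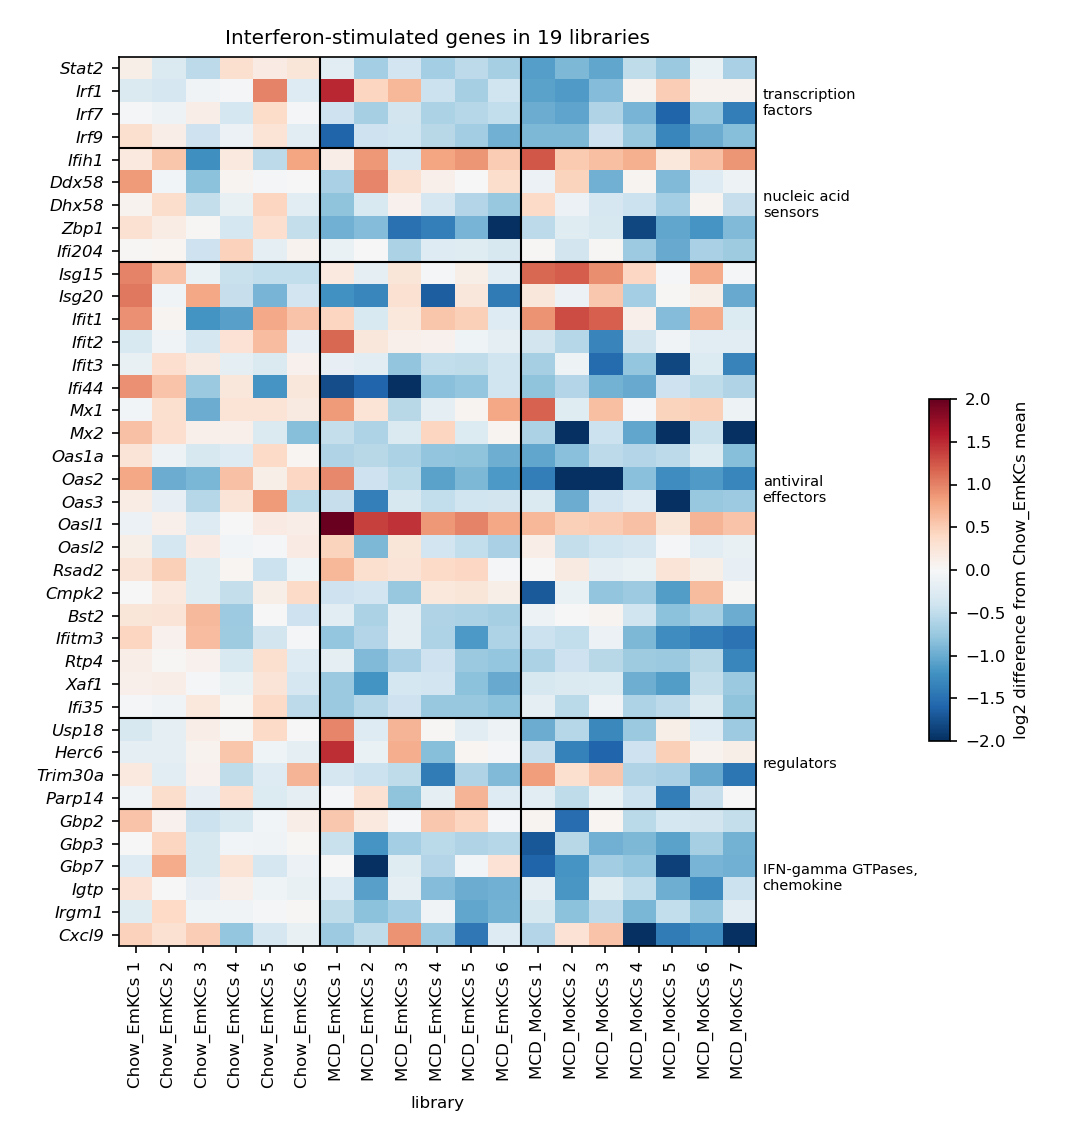
Log2 difference of each member (rows, grouped by role) from its Chow_EmKCs mean in each of the 19 libraries (columns), with values beyond ±2 drawn at the end colours. Blue prevails in the MCD_EmKCs and MCD_MoKCs columns, Oasl1 is red in all 13 of them, and Irf1, Oas2, Usp18 and Herc6 are red in MCD_EmKCs 1.

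The members' median level was also taken library by library, over all 39 of them, called or not. This median of the log2 difference from the chow mean was -0.164 to 0.128 in the chow libraries themselves, -0.508 to -0.234 in MCD_EmKCs and -0.748 to -0.324 in MCD_MoKCs. All 13 diet libraries lay below all 6 chow libraries. Between 13 and 25 members were below the chow mean in each chow library, between 25 and 32 in each MCD_EmKCs library, and between 28 and 34 in each MCD_MoKCs library, so that Chow_EmKCs 3 and MCD_EmKCs 1 shared a count of 25. Within MCD_MoKCs, libraries 1 to 3 were above libraries 4 to 7 for Ifitm3 (9901 to 12824 against 4959 to 7405) and Ifi204 (3870.3 to 5098 against 2499 to 3189), and the part of whatever sets these libraries apart was not tested. MCD_EmKCs 1 nevertheless had the highest summed level of the members, 165512 normalised reads, against 91943 to 123621 in the other MCD_EmKCs libraries and 120117 to 153797 in Chow_EmKCs. That sum included Irf1 at 52556, Oas2 at 14119, Oasl1 at 10485 and Ifit2 at 8336, each the highest of all 19 libraries, while its Irf9 (677) was the lowest of all 19 libraries.

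Genes of the same pathway outside the 39 members were compared in the same way. Of the interferon regulatory factors among them, Irf3, which switches on interferon-beta after nucleic acid is sensed, was lower in MCD_MoKCs than in Chow_EmKCs (log2 fold change -0.65, SE 0.18, adjusted p = 0.0138). Irf5, a factor of inflammatory macrophages, was higher in MCD_MoKCs than in MCD_EmKCs (0.45, SE 0.12, adjusted p = 0.0121).

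Of the ligands, 8 of 11 listed were in the table and Ifnb1 alone was abundant enough to test. Interferon-beta RNA was at 0 in all 6 Chow_EmKCs libraries, where a count of 0 allows up to 3 reads each. In MCD_EmKCs it was at 0 in libraries 1 to 3 and at 14.6, 6.82 and 45.8 normalised reads in libraries 4 to 6. All 7 MCD_MoKCs libraries held it, from 3.80 through a median of 39.6 to 113. Ifnb1 met the filter on low values through its MCD_MoKCs libraries, and the Chow_EmKCs and MCD_EmKCs libraries without them would not have met it. It could thus be tested only because of the group where it was high, and its p-values are given as values only. Ifnb1 was higher in MCD_MoKCs than in MCD_EmKCs (limma adjusted p = 0.0386) and than in Chow_EmKCs (adjusted p = 0.000332). By edgeR and DESeq2, however, the former did not pass, and MCD_EmKCs against Chow_EmKCs did, which limma did not call (adjusted p = 0.32). Ifng was at 0 in 5 of 6, 5 of 6 and 6 of 7 libraries of Chow_EmKCs, MCD_EmKCs and MCD_MoKCs, with single values of 66.3, 12.5 and 16.7, and Ifna2 and Ifna4 were at 0 in all.

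Of 9 receptor and kinase genes, limma called 0 in MCD_EmKCs against Chow_EmKCs, with 1 higher and 1 lower at an unadjusted p under 0.05 and 0 by edgeR and DESeq2. In MCD_MoKCs, Ifngr1, the ligand-binding chain for interferon-gamma, was lower than in MCD_EmKCs (-0.48, SE 0.13, adjusted p = 0.0169) and than in Chow_EmKCs (-0.83, SE 0.13, adjusted p = 3.4e-05), and Ifnar2 was lower than in Chow_EmKCs (-0.53, SE 0.12, adjusted p = 0.00318). Of 10 negative regulators of the pathway, Socs3 and Tnfaip3 were higher in MCD_EmKCs, by 0.65 (SE 0.17) and 1.40 (SE 0.21). Socs3, an inhibitor of cytokine receptors, was higher again in MCD_MoKCs than in MCD_EmKCs, by 0.83 (SE 0.16). In MCD_MoKCs against Chow_EmKCs, Socs3 and Tnfaip3 were higher (1.48 and 1.54) and Trim21 and Ptpn6 lower (-1.26 and -0.61). Over all genes, limma called 2.5% higher and 1.58% lower in MCD_EmKCs against Chow_EmKCs. The shares were 5.64% and 4.9% in MCD_MoKCs against MCD_EmKCs, and 8.68% and 8.08% in MCD_MoKCs against Chow_EmKCs. For lists this short, the calls are given as values only.

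Of 19 sensors and adaptors tested upstream of interferon, the nucleotide hydrolase Samhd1 was lower in MCD_EmKCs (log2 fold change -0.93, SE 0.14), and none was higher by limma, edgeR or DESeq2 (2 higher and 4 lower at an unadjusted p under 0.05). In MCD_MoKCs against Chow_EmKCs, Ticam1 (1.36, SE 0.33) and Ikbke (0.70, SE 0.17) were higher, and Mavs (-0.97, SE 0.19), Trim25 (-0.75, SE 0.20), Samhd1 (-0.71, SE 0.13) and Unc93b1 (-0.52, SE 0.13) lower. Over all genes, 8.68% were called higher and 8.08% lower in that comparison, and 1.58% lower in MCD_EmKCs against Chow_EmKCs. The higher count of the 19 was near its share, and these counts are given as values only. Between the 2 diet groups limma and edgeR called 0 of the 19, and DESeq2 called 1 lower, with 1 higher and 4 lower at an unadjusted limma p under 0.05.

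Among 79 other interferon-induced genes tested, 15 were lower and 1 higher in MCD_EmKCs, against 1.58% lower and 2.5% higher over all genes. The higher count lay below that share. The median log2 fold change of the 79 was -0.473. This list, too, was chosen with earlier results of these data known. Among the genes called, the 8 with the largest changes were Slfn1 (-3.12, SE 0.48), Ly6a (-2.33, SE 0.36), Tgtp2 (-1.57, SE 0.27), Ifi27l2a (-1.17, SE 0.31), Iigp1 (-1.12, SE 0.28), Parp11 (-1.09, SE 0.30), the chemokine Cxcl10 (0.98, SE 0.24), the one that was higher, and Ifi205 (-0.98, SE 0.22). Cxcl10 had 744 to 2267 normalised reads in Chow_EmKCs, with libraries 1 and 2 at 2081 and 2267 and the other 4 at 744 to 1047, and 2054 to 2664 in MCD_EmKCs. Cxcl10 was not called by edgeR. In MCD_MoKCs against MCD_EmKCs, 5 were higher (3 by edgeR, 4 by DESeq2) and 3 lower, with a median of -0.0589. Of 79 genes these counts are near the shares called over all genes, 5.64% higher and 4.9% lower, and are given as values only. Slfn1 (2.71, SE 0.47), Ms4a4c (1.39, SE 0.37), Ly6a (1.33, SE 0.34), the immunoproteasome subunit Psmb8 (0.60, SE 0.19) and Slfn2 (0.44, SE 0.14) were higher. Ddx60 (-1.51, SE 0.22), Trim14 (-0.98, SE 0.29) and Uba7 (-0.75, SE 0.18), the activating enzyme for Isg15, were lower. In MCD_MoKCs against Chow_EmKCs, 22 were lower and 2 higher (Cxcl10 1.41, SE 0.23, and Slfn2 0.54, SE 0.14), with a median of -0.434. Over all genes 8.08% were lower and 8.68% higher, and the higher count lay below that share. Among the genes called, the lowest values were those of Trim30b (-1.86, SE 0.48), Iigp1 (-1.76, SE 0.27), Ddx60 (-1.63, SE 0.22), Tgtp2 (-1.59, SE 0.26), Gbp4 (-1.58, SE 0.36), Ifi205 (-1.48, SE 0.21) and Gbp8 (-1.45, SE 0.18). Slfn2 was named after its value was seen, as 1 of only 2 that were higher.

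RNA of markers of other cells and of cell stress genes also differed between the groups. Whether it came from other cells or from the sorted cells was not tested. Over all genes, limma called 2.5% higher and 1.58% lower in MCD_EmKCs against Chow_EmKCs. The shares were 5.64% and 4.9% in MCD_MoKCs against MCD_EmKCs, and 8.68% and 8.08% in MCD_MoKCs against Chow_EmKCs. Of 10 tested genes that respond to cell isolation, 6 were higher in MCD_EmKCs than in Chow_EmKCs, with sums of 364880 to 508638 normalised reads in Chow_EmKCs, 529791 to 721851 in MCD_EmKCs and 400333 to 598023 in MCD_MoKCs. Of 9 hepatocyte markers, 7 were lower in MCD_EmKCs and 9 in MCD_MoKCs than in Chow_EmKCs, with sums of 3426 to 11408.5, 656 to 2824 and 502 to 1209.8, and none at 0 throughout. Of 14 tested T and NK cell markers, which include the usual sources of interferon-gamma, 8 were higher in MCD_MoKCs than in MCD_EmKCs (3 by edgeR, 4 by DESeq2). Their sums were 199.99 to 369 in Chow_EmKCs, where Ncr1 was at 0, 275 to 605 in MCD_EmKCs, where Cd8a was at 0, and 1041 to 1759 in MCD_MoKCs. In MCD_EmKCs against Chow_EmKCs, Ccl5 alone was called (higher), while the median log2 fold change of the 14 was -1.07. At an unadjusted limma p under 0.05, 1 was higher and 3 were lower there. Ccl5 was also among the 8 higher in MCD_MoKCs than in MCD_EmKCs. Of 6 monocyte markers, 5 were higher in MCD_MoKCs than in MCD_EmKCs, with sums of 112 to 382, 239 to 522 and 3238 to 4839, and Ly6c2 at 0 throughout MCD_EmKCs. Of 7 tested plasmacytoid dendritic cell markers, cells known for interferon-alpha, 2 were higher in MCD_MoKCs than in MCD_EmKCs by limma and 0 by edgeR and DESeq2, and 3 were higher than in Chow_EmKCs (1 by edgeR, 2 by DESeq2). Their sums of 1185 to 1830.2, 936 to 1577 and 1157 to 2119 were mostly Tcf4, whereas Siglech, a defining marker, had means of 7.91, 30.2 and 108 in Chow_EmKCs, MCD_EmKCs and MCD_MoKCs (MCD_MoKCs against Chow_EmKCs 4.33, SE 0.93, adjusted p = 0.00125). Of 8 sinusoidal endothelial markers, 6 were higher and 2 lower in MCD_MoKCs than in Chow_EmKCs, led by Fcgr2b (4.84, SE 0.62), which macrophages also express, with sums of 7135 to 9108, 7961 to 9441 and 4279 to 15130.4. All 3 tested neutrophil markers were higher in MCD_MoKCs than in Chow_EmKCs (2 by edgeR), with sums over the whole list of 15.6 to 151, 34.3 to 211 and 74.7 to 2179.9, and Ngp was at 0 throughout the Chow_EmKCs and MCD_EmKCs libraries. Of 3 tested platelet markers, Pf4 (1.46, SE 0.30) and Treml1 (3.98, SE 1.12) were higher in MCD_EmKCs than in Chow_EmKCs (1 of them by edgeR), with sums of 203 to 651, 913 to 1494 and 1596 to 4619. The conventional dendritic cell markers summed to 17103 to 24348, 24737.5 to 40522 and 27639 to 41739.6. Of 5 tested, Sirpa alone was called in MCD_EmKCs against Chow_EmKCs (higher), and the median log2 fold change of the list was 0.164. Flt3 and Xcr1 were higher in MCD_MoKCs than in MCD_EmKCs (0 by edgeR, 1 by DESeq2), and Flt3 and Sirpa than in Chow_EmKCs (1 by edgeR, 2 by DESeq2). The part of these lists in the differences of the 39 members was not tested.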

How the data were processed

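The authors deposited 1 table of normalised read signal for 33919 gene identifiers in 19 libraries. Livers were digested with collagenase D and RNA was amplified by Smartseq, per the labels' protocols. STAR, DESeq2 and mm10 are named in the submitters' processing notes, without versions. The read counter and its strand setting were not given in the sources used here, nor was its annotation. Within each library the values were whole multiples of 1 step (tolerance 0.001 reads, 100% whole), so reads could be recovered. Size factors computed anew with DESeq2 differed from the deposited ones by ratios of 1.0004 to 1.00501. A symbol was found for 29062 identifiers. Positions and exon lengths are those of GENCODE for GRCm38.

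A gene needed a value of 10 or more in 6 or more libraries, and the 14875 that met this entered 1 limma model (version 3.58.1, R 4.3.3, trend, robust) on log2(value + 1), with 3 groups and 3 two-sided contrasts adjusted by Benjamini-Hochberg. The alternatives, edgeR 4.0.16 and DESeq2 1.42.0 on recovered reads among them, numbered 32. Scripts were tested on simulated data. The members and lists were chosen with earlier results of these data known. Described in full were the 10 members with the largest absolute fold change past the threshold in each of the first 2 comparisons, and the 4 transcription factors. Up to 8 genes of each other list were named per comparison by size of fold change. No molecular identifiers are stated in the labels, and the spread between libraries served as the error. A gene of the pathway lists is not reported here.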

Additional observations from a re-analysis of the deposited data

Results flagged for a closer look

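In groups of 6 or 7 libraries, a value is given here where its gap to the next library exceeds Dixon's 95% critical share of the group's range. Chance gives about 1 such value in 20 groups, and 8 were found in 117 groups of member values examined. In Chow_EmKCs, Irf1 had 36825 normalised reads in library 5, against 14722 to 18015 in the other 5. Herc6 had 1521 in library 4, against 902 to 1078. Irgm1 had 1971 in library 2, against 1264 to 1505. Mx1 had 251 in library 3, against 483 to 620.0. In MCD_EmKCs, Ifit2 had 8336 in library 1, against 3318 to 4405 in the other 5, and Oas2 had 14119 in the same library, against 3270 to 5446. Oas3 had 371 in library 2, against 679 to 761. Cxcl9 had 480 in library 3, against 95.4 to 215. No value in MCD_MoKCs stood apart by this measure.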

How the results depend on the processing

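In 32 alternative settings, 31 planned and 1 added after the libraries were seen (without MCD_EmKCs libraries 1 and 2), the direction of the median member fold change held in all 3 comparisons. The number of lower members did not hold. In MCD_EmKCs against Chow_EmKCs it was 3 to 9 when 1 library was left out, 0 within library numbers up to 33, 2 within numbers from 37 and 2 without MCD_EmKCs libraries 1 and 2, while all genes called fell to 179 and 263 within the number sets. In MCD_MoKCs against MCD_EmKCs the lower members were 2 to 6 with 1 library left out, 3 without a filter on low values, 3 within numbers up to 33, 0 within numbers from 37 and 3 without MCD_EmKCs libraries 1 and 2. All genes called in it were 870 up to 33, 565 from 37 and 1010 without MCD_MoKCs libraries 1 to 3. In MCD_MoKCs against Chow_EmKCs the higher members were 0 to 2 with 1 library left out, and 0 within either number set and without MCD_MoKCs libraries 1 to 3. The lower members were 5 and 7, and all genes called 1257 and 1288, within numbers up to 33 and from 37. Each number set holds fewer libraries, and whether that or another difference lowered the counts was not tested.

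Log2 fold changes that turned in sign were, in MCD_EmKCs against Chow_EmKCs from number 37, Usp18 (-0.226), Ifit2 (-0.304) and Irf1 (-0.723). Without MCD_EmKCs libraries 1 and 2 they were Ifit2 (-0.0162) and Irf1 (-0.204), and with 1 library left out Irf1 ran from -0.0761 (without MCD_EmKCs 1) to 0.384. In MCD_MoKCs against MCD_EmKCs they were Stat2 (0.228) and Irf1 (0.564) from number 37, Oas1a up to 33 (-0.11), and Xaf1 (-0.0765) and Stat2 (0.0155) without MCD_MoKCs libraries 1 to 3. With 1 library left out Oas1a ran from -0.00356 (without MCD_MoKCs 6) to 0.125, and Rtp4 from -0.152 to 0.00454 (without MCD_MoKCs 7). In MCD_MoKCs against Chow_EmKCs, Irf1 was 0.175 without MCD_MoKCs libraries 1 to 3. None of these had passed the threshold, and the causes were not tested.

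The titles share replicate numbers between groups, and deviations from the group means of the 18 same-numbered pairs correlated at -0.0743 to 0.0759. This cannot tell whether libraries came from the same animals, since only same-numbered pairs were compared. With the replicate block, calls were lost for Ifi44, Xaf1, Gbp3 and Irgm1 in MCD_EmKCs against Chow_EmKCs (adjusted p 0.0592 to 0.0654) and for Ifi204 and Xaf1 in MCD_MoKCs against Chow_EmKCs (0.0914 and 0.0915), by limma. The higher members in MCD_MoKCs against Chow_EmKCs became 2 and Rtp4 in MCD_MoKCs against MCD_EmKCs became 0.00454.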
